A study of Mus musculus with 216 samples.

Results

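The genes described here are 9 mouse genes at which a long domain of slowly decaying H3K9me3 lies over the gene or its surroundings: Il3ra, Orc6, Ccdc110, Psmg4, Flg2, D10Wsu102e, Aldh1l2, Actg1 and 6030452D12Rik. They were chosen by their measured overlap with slow domains, out of 21938 protein-coding genes on chromosomes 1 to 19, X and Y. Each gene was taken as its GENCODE vM21 gene body with 5 kb added at either side, and every H3K9me3 domain touching that window was read. The share of a gene inside slow domains, and the width of those domains, were what put the genes on the list. These shares and widths are therefore a description of the choice, and no test was made on them.

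The study followed heterochromatin in a mouse embryonic stem cell line, dTKO, with floxed alleles of Suv39h1 (Suv39h1fl/fl) and Setdb1 (Setdb1fl/fl) and no Suv39h2 (Suv39h2-/-). To ablate H3K9 methyltransferases the cells received 2 degrader compounds together, 100 µg/ml auxin and 0.5 µM dTAG13, and chromatin was collected at 0, 1, 3, 12, 24 and 48 h, with 0 h as the baseline. H3K9me3, HP1b and a matched input for each were sequenced in 216 runs, that is 54 runs of each of 4 kinds and 9 at each time, from 3 biological repeats whose libraries were each run 3 times. All samples carried the same alleles and, those of 0 h included, were labelled as given both agents, and 1.5 µg of Drosophila chromatin was added to every 20 µg of chromatin as a spike-in. The authors' table of domains gives a single decay class per domain (fast, intermediate, slow or residual). It holds no value per library or time, so the depth behind a class is unknown, no value below has an error between cultures, and neither loss of the enzymes nor the identity of the cells could be checked in it.

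H3K9me3 is the histone mark of constitutive heterochromatin. Setdb1 is known for placing it at endogenous retroviruses and at other repeats in embryonic stem cells, and Suv39h1 and Suv39h2 for placing it at pericentromeric repeats and within retrotransposons. HP1 proteins bind the mark and can in turn recruit the methyltransferases. Most genes that are active in embryonic stem cells lack the mark at their start.

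Of the 9 genes, 8 had at least 50% of the window in slow domains. Among all protein-coding genes 0.187% did, and because the genes were picked on this measure nothing is read from the difference. All 9 had exactly 1 slow domain in the window (9.65% of protein-coding genes had any), and 2 also had an intermediate domain. None of the 9 had a fast or a residual domain there. Shares over all protein-coding genes were not computed for intermediate, fast or residual domains, so nothing is read from those counts. With any class counted, 32.9% of protein-coding genes had a domain in the window. D10Wsu102e and Aldh1l2 met in the same slow domain, so the 9 genes lay in 8 slow domains, with 323.7 kb in all. Over the 9 genes the median share inside slow domains was 96.4% of the gene body, 72.6% of the window, 97.3% of the exons and 98.2% of the coding sequence. Over 17790 other protein-coding genes of at least 5 kb, the median share of the body was 0% and 8.26% of the genes had a share above 0.

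**Figure D1:**
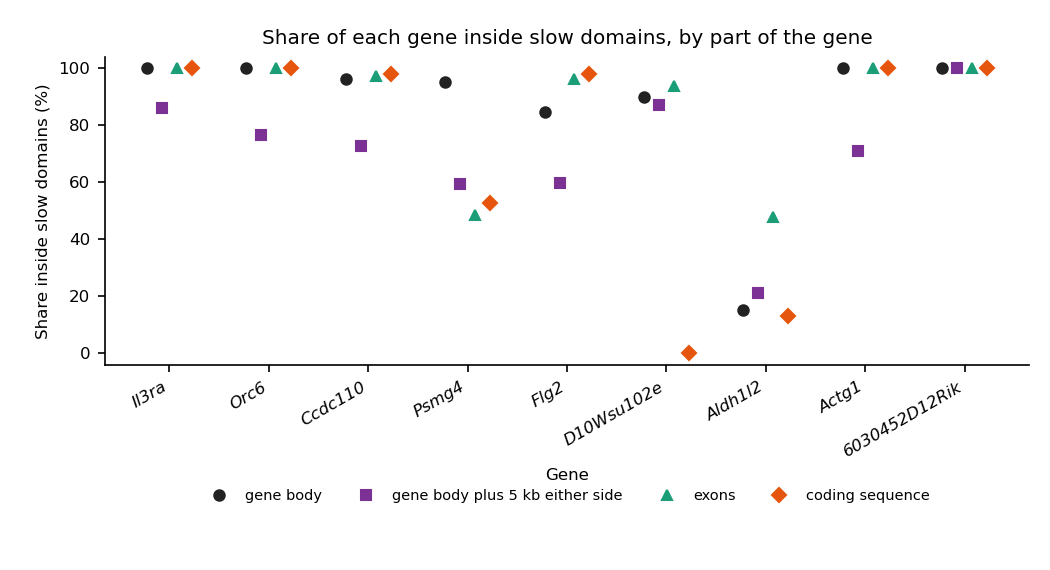
Share of each gene (horizontal axis) that lay inside slow H3K9me3 domains, in percent (vertical axis). Circles are the gene body, squares the body with 5 kb at either side, triangles the exons and diamonds the coding sequence. Aldh1l2 sits at 15.1% of its body, and D10Wsu102e joins a body share of 90.0% to a coding share of 0%.

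For 2 genes the description as nearly covered did not hold. Aldh1l2 had 15.1% of its body in the slow domain. D10Wsu102e had 90.0% of its body there, but its coding sequence lay wholly outside, and its covered share came from a single very long last exon. Another 4 genes, Il3ra, Orc6, Actg1 and 6030452D12Rik, lay wholly inside. Ccdc110 and Psmg4 had over 95% of the body in slow domains (83.6% for Ccdc110 with its RefSeq body), and Flg2 had 84.6%. For Psmg4 this held for the body only, with 48.5% of exonic and 52.9% of coding bases in the domain. The share of the window was 59.5% for Psmg4 and 59.8% for Flg2.

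**Figure D2:**
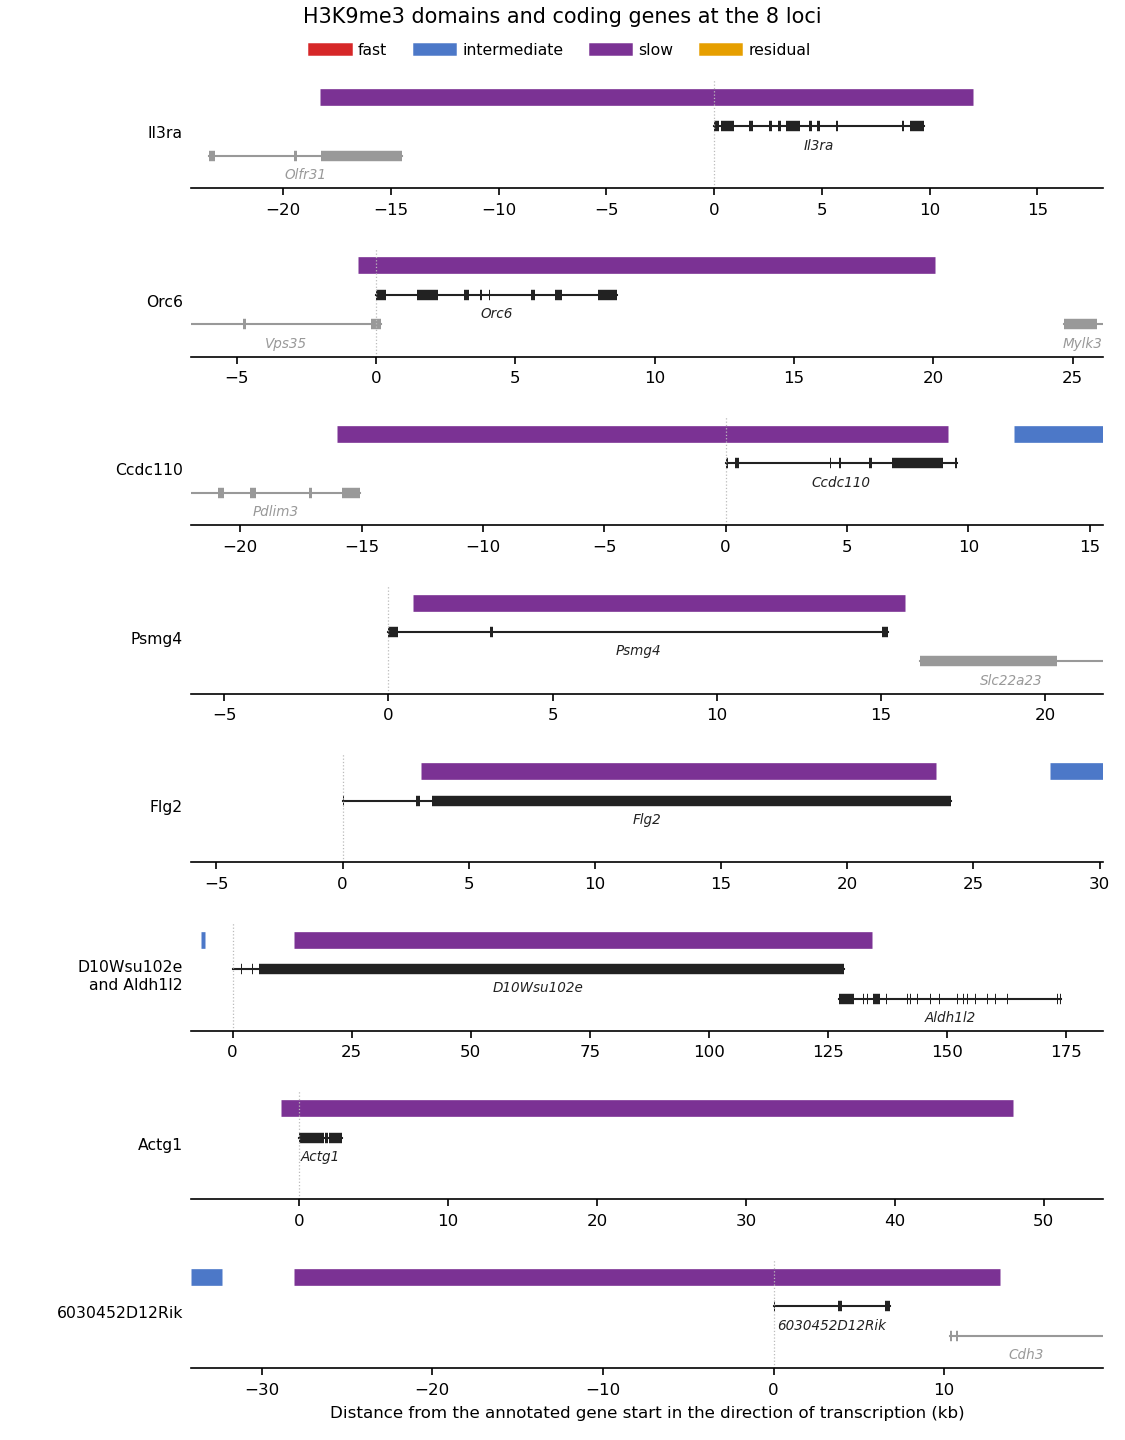
Maps of the 8 loci drawn to scale, with the distance from the annotated start of the first named gene in the direction of transcription in kb on the horizontal axis, which differs in length between panels. Coloured bars are H3K9me3 domains by decay class, and lines with boxes are protein-coding genes and their exons, the 9 genes in black and other genes in grey. The purple slow domain spans the gene start of Il3ra, Orc6, Ccdc110, Actg1 and 6030452D12Rik, and begins after the gene start of Psmg4, Flg2 and D10Wsu102e.

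The gene start lay in a slow domain for 5 of the 9 genes, against 0.501% of protein-coding genes. The gene end did so for 7 of the 9, and the share of gene ends over all protein-coding genes was not computed. The choice of long slow domains shaped these counts and those of promoters too, so nothing is read from them. RefSeq promoter windows, from 250 bases before to 50 bases after a gene's start, were at hand for 7 of the 9 genes and not for Aldh1l2 and 6030452D12Rik. Of these 7 windows, 4 lay wholly in a slow domain (Il3ra, Orc6, Ccdc110 and Actg1) and 3 wholly outside slow domains (Psmg4, Flg2 and D10Wsu102e). Over 32851 RefSeq promoter windows, 0.758% lay wholly in slow domains. A window was called CpG-rich when its GC content was at least 50% and its CpG count at least 0.6 of that expected from its C and G content. By that measure 3 of the 4 windows inside slow domains were CpG-rich, and so were 2 of the 3 outside. Of all CpG-rich windows in the genome, 0.373% lay wholly in slow domains. Among the 245 other windows inside slow domains 15.5% were CpG-rich, and among all windows 33.5% were. The sequences of the 4 windows inside slow domains follow, to show how their CpG content differs, with that of Psmg4, whose domain begins just past its start. They are RefSeq windows on GRCm38.p6, written along the strand of the gene from 5′ to 3′, and capitals mark CpG dinucleotides.
Il3ra, chr14:14346245-14346544, plus strand: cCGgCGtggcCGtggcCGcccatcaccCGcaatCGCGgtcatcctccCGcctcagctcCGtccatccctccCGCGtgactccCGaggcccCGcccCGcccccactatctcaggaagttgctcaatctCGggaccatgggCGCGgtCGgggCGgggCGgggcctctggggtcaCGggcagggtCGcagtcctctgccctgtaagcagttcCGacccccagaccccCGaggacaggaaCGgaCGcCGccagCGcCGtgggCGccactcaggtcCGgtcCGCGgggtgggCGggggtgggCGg
Orc6, chr8:85299382-85299681, plus strand: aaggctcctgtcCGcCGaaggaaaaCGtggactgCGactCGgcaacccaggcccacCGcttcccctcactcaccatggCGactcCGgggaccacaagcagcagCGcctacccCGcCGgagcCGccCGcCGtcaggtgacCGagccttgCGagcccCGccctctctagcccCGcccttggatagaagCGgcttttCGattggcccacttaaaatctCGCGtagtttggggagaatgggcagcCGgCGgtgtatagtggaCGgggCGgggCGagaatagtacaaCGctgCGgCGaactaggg
Actg1, chr11:120348446-120348745, minus strand: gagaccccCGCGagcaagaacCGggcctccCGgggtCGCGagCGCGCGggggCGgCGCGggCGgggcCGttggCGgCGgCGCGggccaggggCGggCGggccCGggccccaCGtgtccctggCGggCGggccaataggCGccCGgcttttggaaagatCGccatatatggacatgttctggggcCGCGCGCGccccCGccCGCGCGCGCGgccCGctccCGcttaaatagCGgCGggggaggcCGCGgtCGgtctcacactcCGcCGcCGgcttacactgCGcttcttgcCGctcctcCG
Ccdc110, chr8:45934369-45934668, plus strand: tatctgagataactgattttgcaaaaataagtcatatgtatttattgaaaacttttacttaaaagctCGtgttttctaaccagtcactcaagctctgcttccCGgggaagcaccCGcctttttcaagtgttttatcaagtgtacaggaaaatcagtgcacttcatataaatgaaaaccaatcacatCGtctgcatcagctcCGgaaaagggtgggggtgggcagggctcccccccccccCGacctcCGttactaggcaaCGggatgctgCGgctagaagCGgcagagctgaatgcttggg
Psmg4, chr13:34162714-34163013, plus strand: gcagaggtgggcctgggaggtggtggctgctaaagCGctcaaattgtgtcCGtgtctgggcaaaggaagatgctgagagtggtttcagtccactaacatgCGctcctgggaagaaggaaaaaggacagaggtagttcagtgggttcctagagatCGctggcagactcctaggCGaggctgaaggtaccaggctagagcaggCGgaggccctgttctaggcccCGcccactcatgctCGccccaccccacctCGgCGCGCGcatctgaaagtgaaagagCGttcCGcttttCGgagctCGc
The Actg1 window held 50 CpG dinucleotides at 1.12 of the expected count and a GC content of 77.3%. The Il3ra window held 35 (0.848 of expected, GC 74.3%) and the Orc6 window 30 (0.948 of expected, GC 65.0%). Ccdc110 had 10 CpG dinucleotides at a GC content of 47.0%, and Psmg4 had 16 at 59.3%. Of the windows not shown, D10Wsu102e held 21 and Flg2 held 3, the lowest of the 7.

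A set of 4 motifs known from gene starts was searched on both strands of these windows, with overlapping matches counted and no motif excluded for overlapping another. The GC box GGGCGG, the site of Sp family factors, occurred 7 times in the Il3ra window, 6 times in Actg1, 4 times in Orc6, 3 times in D10Wsu102e and once in Psmg4, and it was in 35.7% of all RefSeq windows. The CCAAT box occurred once each in Orc6, Ccdc110, Actg1 and D10Wsu102e (37.4% of all windows). TATAAA was found in Ccdc110 only (13.6% of all windows). The CArG box, the site of serum response factor and a known element of actin genes, was found in Actg1 only, where it lies in the printed window, and it was in 1.63% of all windows. These matches describe the letters in the windows, and no binding was measured.

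Orc6 encodes a subunit of the origin recognition complex, which marks the sites where DNA replication starts. The gene (ENSMUSG00000031697.12, chr8:85299632-85308278, plus strand, GRCm38) is 8.65 kb long and lay wholly in a slow domain of 20.7 kb at chr8:85299001-85319700. The domain began 631 bp before the gene start and ran 11.4 kb past its end, and all 7 annotated transcripts started inside it. Its upstream edge reached 0.802 kb into Vps35, a subunit of the retromer of endosomes that is transcribed the other way, so that the start region shared by both genes was in the domain while 2.04% of Vps35 was. Of the 8 slow domains this was the most unique in sequence. Of its 31-base words, read every 100 bases, 94.2% occurred once in the genome and 1.93% occurred at least 100 times, and 33.6% of its bases were soft-masked as repeats.

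The other subunits of the origin recognition complex were not covered. Of 5, Orc1 and Orc3 had no domain in the window. Orc2 had a slow domain of 11.7 kb that lay 591 bp outside the gene, on the side of higher coordinates, and covered none of its body. Orc4, which is also a core subunit, had an intermediate domain of 7.5 kb over 15.8% of its body. Orc5 had an intermediate domain of 1.2 kb outside its body.

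Psmg4 encodes a chaperone that helps to assemble the core of the proteasome, the protease complex that degrades ubiquitinated proteins. The gene (chr13:34162964-34178173, plus strand) is 15.2 kb long, and 95.2% of it lay in a slow domain of 15.0 kb at chr13:34163701-34178700, the narrowest of the 8. That domain began 737 bp after the gene start and ended 527 bp past the gene end, so it was nearly the gene less its promoter and first exon. No other gene overlapped it. The exons were less covered than the body, with 48.5% of exonic bases and 52.9% of coding bases in the domain. In a read of every base, 100% of the 31-base words of its exons were unique in the genome, against 48.6% of those of its introns, of which 46.5% occurred at least 100 times. Of the other 4 proteasome assembly chaperones on the list, Psmg1, Psmg3 and Pomp had no domain, and Psmg2 had an intermediate domain of 1.5 kb outside its body.

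Actg1 encodes cytoplasmic gamma-actin, a widely expressed protein of the cytoskeleton. The gene (chr11:120345690-120348542, minus strand) is the shortest of the 9 at 2.85 kb. It lay near the upstream edge of a slow domain of 49.2 kb at chr11:120300601-120349800, the fifth widest of 8772 slow domains. The domain began 1.26 kb upstream of the gene start and ran 45.1 kb past the gene end, so the gene made up a small part of it. All 9 transcripts started inside. No other protein-coding gene lay in the domain, which also reached 1.12 kb into 0610009L18Rik, a long noncoding RNA that starts beside Actg1 on the other strand. The exons of Actg1 held many repeated words. Of their 31-base words 34.7% were unique and 61.4% occurred 2 to 9 times in the genome, while 4.29% of exonic bases were soft-masked. Among the 9 genes the exons of Flg2 alone had a lower unique share, 30.1%. Reads from such words cannot all be placed on a single copy, and their part in the class of the domain was not tested. None of the 5 other actin genes on the list (Acta1, Acta2, Actb, Actc1 and Actg2) had a domain of any class in the window.

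Il3ra encodes the alpha chain of the receptor for interleukin-3, a cytokine of blood cell formation, and pairs with a beta chain to signal. The gene (ENSMUSG00000068758.8, chr14:14346275-14356011, plus strand) is 9.74 kb long and lay wholly in a slow domain of 30.3 kb at chr14:14328001-14358300. The domain began 18.3 kb before the gene start and ended 2.29 kb past its end, and all 7 transcripts started inside it. It also held 42.3% of the olfactory receptor gene Olfr31 and all of Gm48860, an antisense transcript that overlaps the start of Il3ra. The gene and its flank differed in sequence. Every 31-base word of the exons and introns of Il3ra was unique in the genome, against 33.4% of those in the rest of the domain, where 46.1% occurred at least 100 times. None of the 4 other genes of the receptor family (Il5ra, Csf2ra, Csf2rb and Csf2rb2) had a domain in the window.

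Flg2 encodes filaggrin 2, a repetitive protein of the S100 fused type that is made in the outer layers of the epidermis. The gene (chr3:93197278-93221391, plus strand) is 24.1 kb long and had 84.6% of its body in a slow domain of 20.4 kb at chr3:93200401-93220800. The domain began 3.123 kb after the start of the longer, noncoding transcript and ended 591 bp before the gene end. It fitted the GENCODE coding transcript more closely, of whose span 99.1% lay inside, and it held 98.03% of the GENCODE coding sequence. In RefSeq the gene body begins at chr3:93197273, near the start of the longer transcript, and 84.6% of that body lay in slow domains. The domain stood apart from the others by its sequence. Its GC content was 56.5%, above that of all 440 other slow domains of at least 15 kb, of which the highest had 52.1%. None of its sampled 31-base words occurred 100 times or more, yet 29.4% were unique.

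The repeated words of the Flg2 domain were copies within the domain. Of its 31-base words 71.3% recurred inside it, against a median of 4.62% (quartiles 3.26% and 6.88%) over the 440 other wide slow domains, 4 of which had at least as high a share. The most common distance between successive copies was 234 bp, which is 78 codons with a remainder of 0. The adjacent pair of units in the coding sequence that was most alike without being identical is given here from the plus strand of GRCm38, because its length is that most common distance. Capitals mark the bases that differ between the units.
Flg2 unit 1, chr3:93219102-93219335: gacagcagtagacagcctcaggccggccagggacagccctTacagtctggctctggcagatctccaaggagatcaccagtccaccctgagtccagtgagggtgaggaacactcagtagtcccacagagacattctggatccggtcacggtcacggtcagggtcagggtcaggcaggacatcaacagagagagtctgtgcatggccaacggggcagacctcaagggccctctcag
Flg2 unit 2, chr3:93219336-93219569: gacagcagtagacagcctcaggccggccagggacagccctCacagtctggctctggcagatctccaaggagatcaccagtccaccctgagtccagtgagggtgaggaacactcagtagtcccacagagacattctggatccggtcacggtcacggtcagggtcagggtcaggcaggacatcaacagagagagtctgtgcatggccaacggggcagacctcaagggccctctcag
The units were identical at 233 of 234 bases (99.6%), and their GC content was 59.8% and 60.3%. Hrnr, the hornerin gene and a neighbour of the same protein family, differed in class. It had a fast domain of 3.6 kb over 26.1% of its body, in which 0% of the sampled 31-base words were unique and 8.08% of bases were soft-masked. The other 5 genes of the family on the list (Flg, Rptn, Tchh, Tchhl1 and Crnn) had no domain in the window.

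D10Wsu102e and Aldh1l2 lie end to end on chromosome 10, and a single slow domain of 121.5 kb at chr10:83373001-83494500, the widest of all 8772, covered the place where they meet. D10Wsu102e (chr10:83360221-83488505, plus strand) is 128.3 kb long in GENCODE with 1 transcript of 4 exons. The domain began 12.8 kb after its start and ended 5.995 kb past its end. It held 93.8% of the exonic bases, all from the last exon, and 0% of the coding sequence of 555 bp. In RefSeq the gene ends at chr10:83368835 and is 8.62 kb long, and none of that body lay in slow domains. The share of the window was 87.1% with the GENCODE body, against 4.49% with the RefSeq body. The covered share of this gene thus rested on which annotation sets its end.

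Aldh1l2 encodes the mitochondrial formyltetrahydrofolate dehydrogenase of folate metabolism. The gene (chr10:83487450-83534140, minus strand) is 46.7 kb long, and the domain covered its last 7.05 kb, with 39.6 kb between the domain and the gene start. The domain touched 3 of its 23 exons, held 47.8% of exonic bases and 13.0% of coding bases, and missed 4 of its 7 transcripts altogether. In the order of coding genes by the share of the body in slow domains, with a lower limit of 5 kb on gene length, it came at rank 289. Of the 13 other enzymes of folate metabolism on the list, 3 had domains, all intermediate: Mthfd2l, Mthfs and Tyms with 2 each. Those domains covered 3.32% of the body of Mthfd2l, 3.23% of Mthfs and none of Tyms. Of the window they covered 7.17% at Mthfd2l, 3.05% at Mthfs and 33.9% at Tyms. Over the 6 lists of related genes, 8 of 37 genes other than the 9 had a domain in the window and 1 of them had a slow domain, beside 32.9% and 9.65% of all protein-coding genes.

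Ccdc110 encodes a coiled-coil protein whose human counterpart is known as a cancer/testis antigen. The gene (chr8:45934619-45944145, plus strand) is 9.53 kb long, and 96.4% of it lay in a slow domain of 25.2 kb at chr8:45918601-45943800. The domain began 16.0 kb upstream and reached 0.948 kb into the end of Pdlim3, a PDZ and LIM domain protein of muscle. It stopped 345 bp before the GENCODE end of Ccdc110. In RefSeq the gene ends at chr8:45945606, and 83.6% of that body lay in slow domains. An intermediate domain of 6.9 kb followed after a gap of 2.7 kb. All exonic 31-base words of Ccdc110 were unique and 98.04% of the intronic ones were, against 51.6% in the domain outside the gene.

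6030452D12Rik (chr8:106500522-106507342, plus strand) is a coding gene of 6.82 kb with 1 transcript, and it was the only 1 of the 9 whose whole window was slow. Its domain of 41.4 kb at chr8:106472401-106513800, which shared the ninth place by width among slow domains with 1 other, began 28.1 kb before the gene and ran 6.46 kb past it. It reached 2.91 kb into Cdh3, the gene of P-cadherin, and covered 6.27% of it. All exonic 31-base words were unique, 86.96% of intronic ones were, and 40.7% were in the domain outside the gene. Within the domain 34.5% of 31-base words recurred.

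Slow domains of the 9 genes were wide, as the choice required. Their widths ran from 15.0 kb at Psmg4 to 121.5 kb at D10Wsu102e, with a median of 27.8 kb, against a median of 4.2 kb (quartiles 2.7 and 8.4 kb) over the other 8764 slow domains. Of the 8 widest slow domains, 2 were those of the 9 genes, and 4 of the other 6 held no protein-coding gene.

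**Figure D3:**
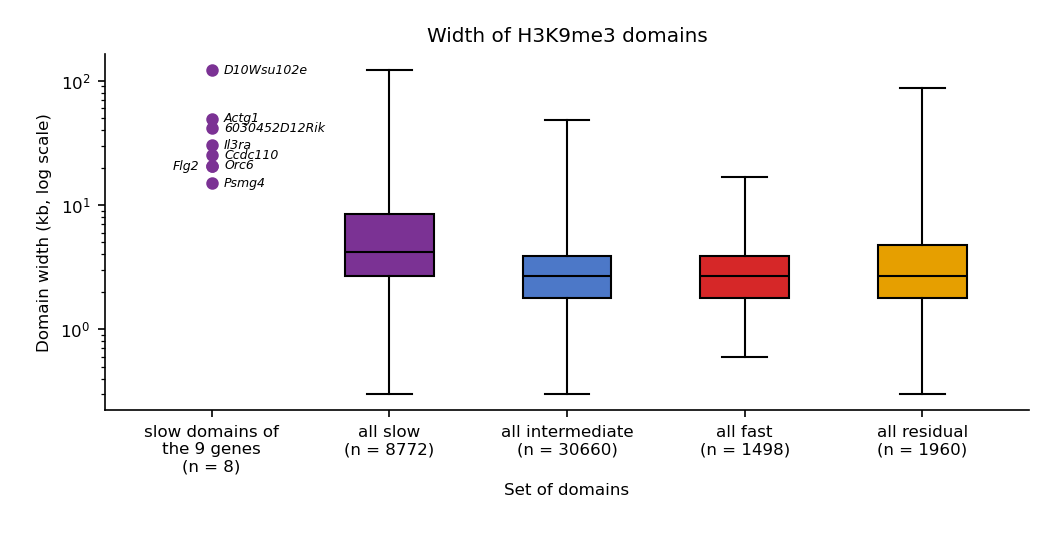
Width of H3K9me3 domains in kb on a log scale (vertical axis) for the 8 slow domains of the 9 genes, shown as points with gene names, and for all domains of each decay class, shown as boxes from the lower to the upper quartile with the median as a line and whiskers to the lowest and highest. The 8 domains sit between 15.0 and 121.5 kb, above the box of all slow domains, which they were chosen to be.

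By the share of the GENCODE body in slow domains, Il3ra, Orc6 and 6030452D12Rik shared rank 1 of the coding genes that measure 5 kb or more. Ccdc110 came at rank 5, Psmg4 at 6, D10Wsu102e at 7 and Flg2 at 9. Zfp629, a zinc finger gene with 99.2% of its body in slow domains, stood between them at rank 4 and Vmn2r35, a vomeronasal receptor gene, at rank 8 with 86.5%. Just below Flg2 at 84.6% came Zfp986 at 83.9%, Spaca5 at 81.6% and H2-T24 at 80.8%. Another 33 protein-coding genes had at least 50% of the window in slow domains, with a median of 59.7%. Of these 33, 17 (51.5%) had the gene start in a slow domain, and by symbol 12 were predicted genes named Gm, 3 were zinc finger genes and 1 was a vomeronasal receptor gene.

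The sequence of the 8 slow domains was not itself used to choose them, but they were chosen for lying over or beside coding genes. Their median GC content was 45.5%, against 43.6% over the 440 other slow domains of at least 15 kb, and their median CpG ratio was 0.324, against 0.299. A median of 56.9% of their bases was soft-masked, against 68.2%, and a median of 57.4% of 31-base words was unique, against 40.3%. Words found at least 100 times had a median share of 24.5%, against 32.8%. Flg2 was the only 1 of the 8 domains with a unique share below the median of the 440. The 440 others were taken by class and width alone, so the choice favoured gene sequence in the 8. Its part in these differences was not tested. Domains are not replicates of a condition, so these differences are given without a test.

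**Figure D4:**
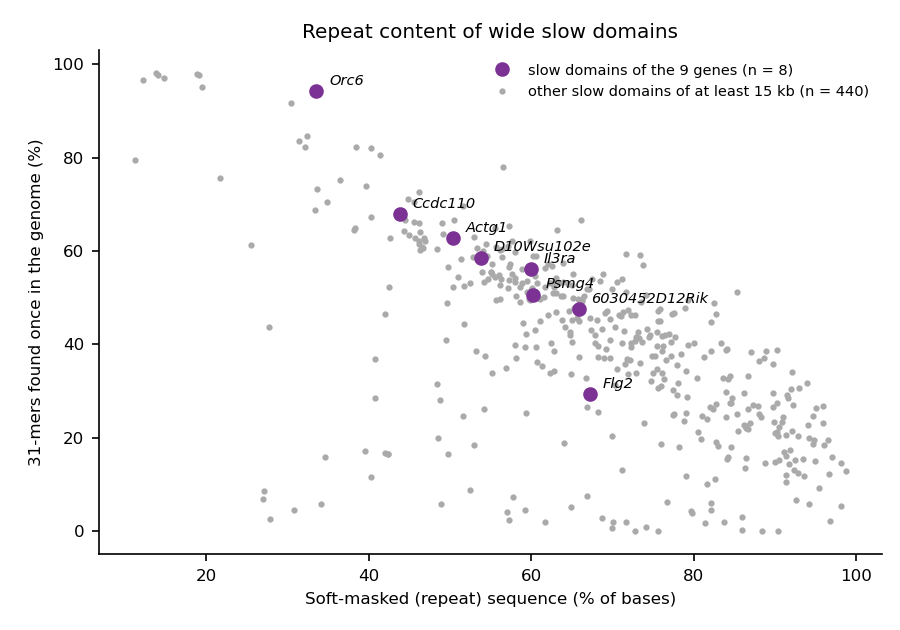
Share of bases soft-masked as repeats (horizontal axis, percent) and share of sampled 31-base words found once in the genome (vertical axis, percent) for slow domains of at least 15 kb. Large points are the 8 domains of the 9 genes and small grey points the 440 others. Orc6 lies at 33.6% masked and 94.2% unique, and Flg2 at 67.3% masked and 29.4% unique, while the other 6 fall between them.

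Long direct repeats lay in 7 of the 8 domains. A pair was counted when at least 200 words of 31 bases recurred at the same distance of 1 to 10 kb. Such pairs were in 318 of the 440 other wide slow domains (72.3%). The upper quartile of width of these 440, 21.3 kb, is below the median of 27.8 kb of the 8. The part of width in the share with a pair was not tested. The count of 7 includes Flg2, whose pair at 1.17 kb with 276 shared words lay inside its array of 234-bp units. At 5 of the 8 loci the commonest such distance was near 6.8 kb: 6.75 kb at Ccdc110, 6.79 kb at Il3ra, 6.80 kb at 6030452D12Rik, and 6.85 kb at Psmg4 and Actg1. A distance of 6.7 to 6.9 kb, a range set after these values were seen, occurred in 116 of the 440 others (26.4%). In Psmg4 the pair lay inside the gene, from 3.81 to 11.04 kb after its start, with 332 shared words. In Il3ra it lay upstream, between 13.2 and 6.02 kb before the start, with 327 shared words, and in Ccdc110 between 11.9 and 4.81 kb before the start, with 323. In Actg1 it lay past the gene, from 20.3 to 27.5 kb after the start, with 276. At these 4 loci the first copy spanned 337 to 384 bp. No repeat annotation was used, so the pairs are not named. At 6030452D12Rik the pair was of another kind, since 6998 words were shared and the first copy spanned 7105 bp, which is longer than the distance of 6.80 kb, so that the copies ran into each other between 20.99 and 7.09 kb before the gene start. At D10Wsu102e 356 words recurred at 5.2 kb inside the long last exon. Orc6 had none, with 0.387% of its words recurring in the domain.

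Primer binding sites, stretches of 18 bases complementary to the end of a tRNA from which retroviruses start reverse transcription, were counted in the 8 domains. There were 2, both for isoleucine tRNA and both at D10Wsu102e, or 0.618 per 100 kb, against 1.32 per 100 kb over the 440 other wide slow domains. Thus 1 of the 8 domains held a site, against 23.4% of the 440, and counts this low do not set the 8 domains apart.

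Pooled over the 8 loci, the domains next to them had a slow share somewhat below that of their chromosomes, and single loci lay on either side of theirs. Of the 5 nearest on each side of each locus, 80 in all, 51 were intermediate (63.8%), 20 slow (25.0%), 6 residual and 3 fast. The slow share over whole chromosomes, weighted by these loci, was 30.6%. Il3ra had no slow domain among its 10 neighbours, Actg1 had 1, the locus of D10Wsu102e and Aldh1l2 had 2, and Psmg4, Flg2 and 6030452D12Rik had 3 each. Orc6 and Ccdc110 had 4 each. The widest of all 80 neighbours measured 14.1 kb, so each of the 8 domains was wider than every one of its neighbours. Width was part of the choice of the genes, so nothing is read from this.

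**Figure D5:**
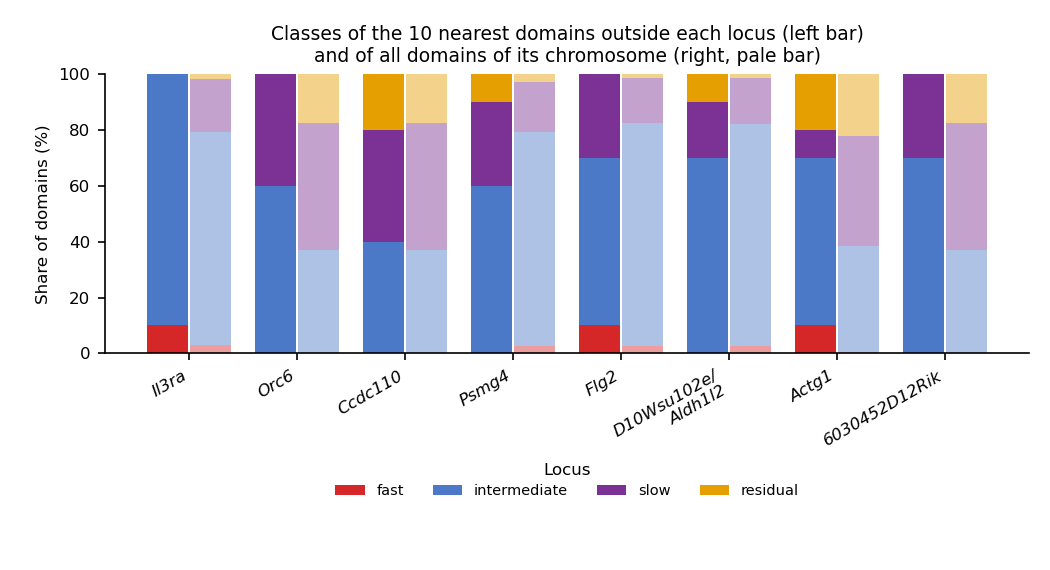
Share of the 10 domains nearest to each locus in each decay class (left bar, full colour) and of all domains on the same chromosome (right bar, pale), in percent. Intermediate domains, in blue, make up 40.0 to 90.0% of the neighbours, and no slow domain, in purple, is among the 10 at Il3ra.

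Decay classes were not spread evenly over chromosomes, and this touches 4 of the 9 genes. Of all 42890 domains, 2869 lie on chromosome 8 and 2280 on chromosome 11. Over all domains 20.45% were slow, and 17.41% over those of the other chromosomes. The share of all protein-coding genes on chromosomes 8 and 11 was not computed, so nothing is read from the count of 4. Orc6, Ccdc110 and 6030452D12Rik lie on chromosome 8, where 45.4% of domains were slow and 17.4% residual, and Actg1 on chromosome 11, where 39.5% were slow and 22.1% residual. These are the highest shares of both classes, since slow shares ran from 9.23% on Y to 21.4% on chromosome 7 elsewhere and residual shares reached 6.01% at most. Fast domains made up 0.0697% of domains on chromosome 8 and 0.395% on chromosome 11. The other 5 genes lie on chromosomes with slow shares of 16.1% (3), 16.5% (10), 18.01% (13) and 18.8% (14). The part of the chromosome in the class of these 4 genes was not tested.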

How the data were processed

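The analysis used the authors' deposited table of H3K9me3 domains on mm10 (GRCm38), with 1 row per domain that holds its position and, as a word, its decay class. It has 0 columns of sample values. The submitters' processing notes name bedtools, deepTools, SAMtools 1.1 and Bowtie2 2.3.4.1, with the builds GRCm38, mm10, mm9 and dm6. Domain calling, scaling to the spike-in, placement of repeat reads and the division into classes were not given in the sources used here. Reads, signal tracks and HP1b were not analysed here.

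Of 43039 domains, the 42890 on chromosomes 1 to 19, X and Y were used, and 8772 of these are slow. All lie on a grid of 300 bp. Coordinates are printed 1-based. Gene bodies, exons and coding sequence came from GENCODE vM21, and promoter windows and a second set of gene bodies from RefSeq on GRCm38.p6. GC content, the CpG ratio and soft-masked bases were computed per domain, with 31-base words read every 100 bp and counted over the genome on both strands. Counting of words and of repeat distances was tested on simulated sequence. Primer binding sites came from 403 annotated tRNA genes.

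The genes, the lists of related genes and the measures were chosen with earlier results of these data known. Named genes are the 9, the coding genes sharing their slow domains, up to 5 related genes with a domain per list, and the 5 other coding genes with the largest slow share of the body (length 5 kb or more), with the 3 next below Flg2. Related genes with no domain were named afterwards to complete each list, and the repeat distances were added after the domains were seen. No statistical test was made. Alternatives were other flanks, other gene bodies, domains shortened at both ends and 51-base words. Figures were drawn with matplotlib 3.10.9, and values were computed in Python 3.11.15 with numba 0.67.0, scipy 1.17.1, pandas 2.3.3 and numpy 2.4.6.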

Additional observations from a re-analysis of the deposited data

How the results depend on the processing

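The flank set the share of the window in slow domains. Its median over the 9 genes was 96.4% for the gene body alone and 89.4% with 1 kb either side, against 72.6% with 5 kb, and it was 50.9% with 20 kb, where 5 of 9 genes, not 8, had at least 50%. With RefSeq gene bodies, an alternative chosen after seeing the data, the median was 63.7% over 8 genes, 6 of which had at least 50%. Counting each locus once gave 71.8%. Shortening domains by 300 bp at both ends moved none of the 9 genes beyond the 95% binomial interval over 300-bp bins. That yardstick treats neighbouring bins as independent. A cut this small could not leave such intervals, so nothing is read from the shortening. Adding residual domains could change nothing, since no window held one. The median share of unique words was 66.5% with words of 51 bases, against 57.4% with 31. No paired analysis was possible because the table holds no sample values and no result comes from a test. Depth limits every class to an unknown degree.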
